A study of Homo sapiens with 2 samples.

Results

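The transcripts described here are those annotated as retaining an intron in protein-coding genes of WI-38, an established line of human fetal lung fibroblasts. They are the rows of a deposited transcript table with the transcript biotype retained intron, the gene biotype protein coding, a complete match to an annotated transcript, a length of at least 200 bases and a locus outside the Y chromosome. The rule gave 15105 of 202463 transcripts, in 5727 genes. The rule uses annotation only and no measured value. The series holds 2 libraries of total RNA, 1 from young cells at population doubling level 20 and 1 from cells passaged into replicative senescence at level 52. Both are untreated WI-38 cultures grown in DMEM. With 1 library per group there is no replicate error and no test was made across transcripts. A difference is instead named by size, 2-fold on log2(FPKM + 1), where FPKM is fragments per kilobase of transcript, scaled by library size. All differences are senescent against young, and the pseudocount of 1 FPKM understates them for low transcripts.

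Introns are normally cut from a transcript before it leaves the nucleus. A transcript that keeps an intron usually meets a stop codon inside it, and it may then stay in the nucleus, be spliced later or be degraded by nonsense-mediated decay in the cytoplasm. Genes for splicing factors are a textbook case, because retained introns and other unproductive isoforms take part in tuning their own output. The annotated retained-intron models are partial transcripts, and reads in their exons are shared with the coding transcripts. An FPKM given to such a model is therefore an estimate of how the reads of a gene divide among overlapping models, not a direct count of unspliced RNA.

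The introns below show what the models hold. Exon structures came from GENCODE 29 on GRCh38, matched by transcript ID, gene, biotype and equal length, which placed 13929 of the 15105 transcripts. Of these, 3552 (25.5%) hold at least 1 whole intron of the coding transcripts, 10244 hold part of an intron only, and 133 hold no intronic base. Each intron is printed 5′ to 3′ on the strand of its gene, with its first 2 and last 2 bases and the first stop codon in the frame of the coding transcript in capitals. The set comprises short introns inside coding sequence from genes that the results return to. They are a purine synthesis enzyme whose retained-intron share was higher in senescence, a helicase whose share was lower, a splicing kinase, a mitotic gene, a polo-like kinase gene and a pair of matrix genes.
IMPDH2-004: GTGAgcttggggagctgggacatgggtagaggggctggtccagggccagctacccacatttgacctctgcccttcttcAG
IMPDH2-003: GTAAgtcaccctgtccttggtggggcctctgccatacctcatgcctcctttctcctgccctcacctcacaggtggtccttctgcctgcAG
ERCC3-003: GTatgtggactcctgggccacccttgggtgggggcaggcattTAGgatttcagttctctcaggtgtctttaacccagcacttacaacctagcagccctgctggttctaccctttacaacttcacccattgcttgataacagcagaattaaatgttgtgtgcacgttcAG
CLK1-010: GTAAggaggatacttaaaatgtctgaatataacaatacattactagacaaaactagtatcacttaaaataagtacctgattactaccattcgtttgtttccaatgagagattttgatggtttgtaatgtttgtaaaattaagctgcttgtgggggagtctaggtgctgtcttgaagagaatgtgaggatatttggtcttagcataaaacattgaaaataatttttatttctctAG
TACC3-009: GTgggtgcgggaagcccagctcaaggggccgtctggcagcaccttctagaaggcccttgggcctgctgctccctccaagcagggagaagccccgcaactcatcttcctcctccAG
PLK2-004: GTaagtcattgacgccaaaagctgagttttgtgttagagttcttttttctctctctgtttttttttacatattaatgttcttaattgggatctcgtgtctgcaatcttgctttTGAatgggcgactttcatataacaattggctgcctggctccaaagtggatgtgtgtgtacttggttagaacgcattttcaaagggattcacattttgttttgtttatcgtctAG
FN1-031: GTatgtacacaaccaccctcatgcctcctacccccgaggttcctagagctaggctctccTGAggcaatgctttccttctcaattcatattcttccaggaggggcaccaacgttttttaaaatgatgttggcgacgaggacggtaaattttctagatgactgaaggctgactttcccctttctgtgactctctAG
COL1A1-002: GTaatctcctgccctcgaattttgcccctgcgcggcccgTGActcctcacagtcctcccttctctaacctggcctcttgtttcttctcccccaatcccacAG

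On GRCh38 the IMPDH2 introns lie at chr3:49024579-49024658 and chr3:49024405-49024494, minus strand, and are 80 and 90 bases long. The ERCC3 intron lies at chr2:127289520-127289688, the CLK1 intron at chr2:200861467-200861701 and the FN1 intron at chr2:215409740-215409933, all on the minus strand. The PLK2 intron is at chr5:58458172-58458398 and the COL1A1 intron at chr17:50199454-50199555, both on the minus strand, and the TACC3 intron is at chr4:1744833-1744947 on the plus strand. All 8 begin with GT and end with AG. In IMPDH2 and CLK1 the stop codon starts at base 2 of the intron, so that the stop overlaps the splice donor itself. It starts at base 43 in ERCC3, 60 in FN1, 114 in PLK2 and 40 in COL1A1. The TACC3 intron of 115 bases holds no stop in the frame read, and 115 is not a multiple of 3. The base composition ranged from 31.5% G and C in CLK1 to 65.2% in TACC3.

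Over all placed transcripts, 4016 different introns were held whole. Their median length was 239 bases, and 57.7% were at most 300 bases long. GT and AG bounded 98.6% of them, GC and AG bounded 42, and AT and AC, the ends typical of the minor spliceosome, bounded 5. For the 3550 transcripts with another intron of the same gene to compare, the median intron held whole was 222 bases and the median other intron 683 bases. The intron held whole was the shorter in 82.2% of these transcripts. An intron counts as held whole only inside 1 exon of a model, so it cannot be longer than the model. The placed transcripts had a median length of 727 bases, so part of this length gap is set by the annotation. Over transcripts with whole or partial introns, intronic bases had a median of 46.4% G and C against 52.6% for exonic bases (13081 compared). They were lower in 72.7%. Most of that gap came from transcripts with part of an intron only, at 43.0% and 50.6%. In transcripts with a whole intron the medians were close, at 55.2% and 56.9%. The frame could be read through 3870 introns, and 3317 (85.7%) held a stop codon in frame, at a median of 40 bases. The 553 introns without one had a median length of 100 bases, and 128 of them were a multiple of 3 long.

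**Figure D1:**
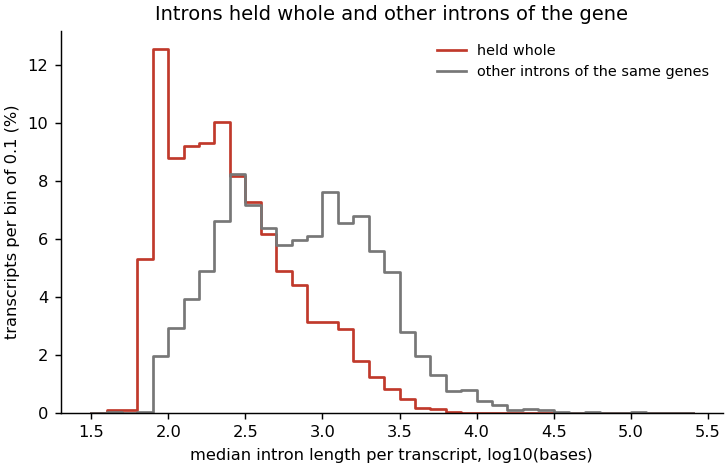
Median length of the introns held whole (red) and of the other introns of the same gene (grey) for 3550 retained-intron transcripts, on a log10 axis of bases; the vertical axis is the share of transcripts per bin. The introns held whole peak near 100 bases, and the medians of the distributions are 222 and 683 bases.

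Of the 15105 transcripts, 4992 (33.0%) reached 1 FPKM in at least 1 library and are called measured, in 2694 genes. Another 3687 were listed at 0 in both libraries and 6426 lay between 0 and 1 FPKM. At the length limit, 7 transcripts were shorter than 210 bases and 5 of them were measured, up to 31.5 FPKM. The 19 transcripts left out as shorter than 200 bases included 13 measured ones, up to 25.7 FPKM. The whole-fragment steps in the FPKM values give effective depths of about 15880000 (young) and 14780000 (senescent) fragments. At the median length of a measured transcript, 1 FPKM then equals about 7.5 and 7.0 fragments. All 12 fibroblast markers were at 1 FPKM or more, with summed levels of 8855 FPKM in young and 4785 FPKM in senescent cells. Of markers of other cells, 2 of 5 epithelial (summed 13.0 and 8.40 FPKM), 1 of 3 endothelial (10.2 and 5.32 FPKM) and 4 of 5 blood markers (69.5 and 61.6 FPKM) reached 1 FPKM, and SFTPC and CDH5 were listed at 0. Their part in the results was not tested, and in bulk RNA fewer cells of a type and less RNA per cell cannot be told apart.

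Retained-intron transcripts were lower in the senescent library more often than higher. Of the 4992 measured, 395 were at least 2-fold higher, against 10.7% of all measured transcripts, and 698 at least 2-fold lower, against 17.9%. As shares these were 7.91% and 14.0%, so both fell short of the shares over all transcripts. The median log2 ratio was −0.18 for retained-intron transcripts and −0.23 over all measured transcripts. It was −0.03 for coding transcripts, −0.01 for nonsense-mediated-decay transcripts and −0.07 for processed transcripts of coding genes. The excess of lower transcripts depends on scaling. Scaling to the upper quartile, which raises the senescent values by 0.23 on the log2 scale, gave 570 higher and 547 lower with a median of 0.01, and median-ratio scaling, which raises them by 0.14, gave 497 and 606. A further kind, transcripts assembled from reads inside introns and belonging to no annotated model, stood lowest: 478 of 16286 were higher, 3751 lower, and the median was −0.56.

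**Figure D2:**
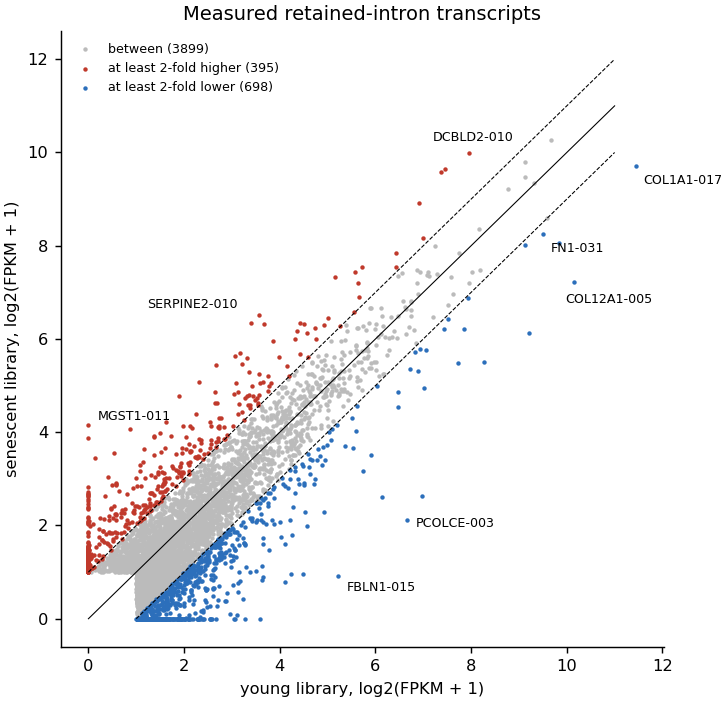
Each point is 1 of the 4992 measured retained-intron transcripts, with its level in the young (horizontal) and senescent (vertical) library as log2(FPKM + 1); dashed lines mark 2-fold. Red marks the 395 higher, blue the 698 lower and grey the transcripts between; COL1A1-017 stands farthest right and PCOLCE-003 far below the line.

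The strongest signals came from matrix and secreted-protein genes, and 69 transcripts reached 100 FPKM. COL1A1-017 (chr17:48263205-48264174, minus strand, hg19), from the gene of the main chain of type I collagen, stood at 2797 FPKM in young and 841 FPKM in senescent cells. FN1-017, from the fibronectin gene, was at 908 and 265 FPKM, and COL12A1-005, from a gene of a fibril-associated collagen, at 1144 and 149 FPKM. These 3 were all lower in senescent cells. THBS1-006, from the thrombospondin 1 gene, went the other way with 815 and 1226 FPKM, as did SPARC-002, from the osteonectin gene, with 557 and 882 FPKM. GAPDH-011, from a glycolytic enzyme gene, was at 557 and 706 FPKM, and TPT1-010, from the gene of a translationally controlled protein, at 634 and 647 FPKM. DCBLD2-010, from a membrane receptor gene, was at 249 and 1009 FPKM. It holds 1 intronic base by the annotation, so its level is that of an exonic segment. FN1-017 and COL12A1-005 have the status FAIL and DCBLD2-010 the status LOWDATA in the authors' deposited table. High levels went with little intron: the 66 placed transcripts at 100 FPKM or more had a median of 113.5 intronic bases, 23.3% of their length.

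Most of the transcripts with the lowest ratios stayed within 2-fold of all coding rows of their genes. PCOLCE encodes an enhancer of procollagen processing. PCOLCE-003 (chr7:100203772-100205794, plus strand, hg19) was at 100.4 and 3.32 FPKM, and PCOLCE-009 at 124 and 5.18 FPKM. Against the coding transcripts of the gene the differences were only −0.52 and −0.31 on the log2 scale. FBLN1-015, from the gene of the matrix protein fibulin 1, was at 36.1 and 0.874 FPKM, a log2 ratio 0.88 above that of all its coding rows and −0.43 against complete-match rows. CLDN11-005, from a tight junction gene, was at 11.05 FPKM in young cells and listed at 0 in senescent cells. COL12A1-004, with the status FAIL in the authors' deposited table, was at 69.8 and 5.11 FPKM. RRM2-011, from a gene of ribonucleotide reductase, which supplies nucleotides for DNA synthesis, was at 21.3 and 0.934 FPKM. Among these 6 only CLDN11-005 was more than 2-fold away from all coding rows of its gene, at −1.08. Against complete-match coding rows COL12A1-004 was far away too, at −5.03.

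Of the 6 transcripts with the highest ratios, 4 stood apart from their coding transcripts. SERPINE2-010, from the gene of the protease inhibitor nexin 1, was at 10.9 and 90.4 FPKM, a log2 ratio 0.45 above that of its coding transcripts. MGST1-011, from a microsomal glutathione transferase gene, was listed at 0 in young cells and stood at 16.8 FPKM in senescent cells. SLC20A1-004, from a phosphate transporter gene, was likewise listed at 0 and then at 13.7 FPKM. PDK2-017, from a kinase of the pyruvate dehydrogenase complex, was at 0.0994 and 9.96 FPKM. RAI14-027, from an actin-associated ankyrin protein, was at 0.834 and 15.7 FPKM, and SULF2-013, from an extracellular heparan sulfatase gene, at 0.443 and 10.8 FPKM. MGST1-011, SLC20A1-004, PDK2-017 and RAI14-027 were also at least 2-fold higher relative to their coding transcripts, by 2.55, 2.42, 2.02 and 2.17, and SULF2-013 fell just short at 0.998. A transcript at 0 in a library was rare in both directions. There were 99 measured retained-intron transcripts at 0 in young and 200 at 0 in senescent cells, 5.99% together. Other kinds were close, at 6.67% for coding and 6.46% each for nonsense-mediated-decay and processed transcripts, and 7.66% over all measured transcripts.

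Set against the coding transcripts of the same gene, the retained-intron transcripts had a median difference near 0. The relative ratio is the log2 ratio of the transcript minus that of the summed coding rows of its gene. Its median was 0.01 over 4989 transcripts, with 439 at least 2-fold higher and 469 lower. Over all annotated non-coding transcripts of coding genes, retained-intron ones included, 10.4% were higher and 8.7% lower in this sense, against 8.80% and 9.40% here. The medians were 0.08 for nonsense-mediated-decay and 0.07 for processed transcripts. The coding sum includes rows assembled by the authors, such as unannotated isoforms and fragments in introns or on the other strand, and complete matches made up 65.4% of it in young and 69.3% in senescent cells. With complete-match coding rows only, the median was −0.10, with 374 higher and 605 lower (8.63% and 11.1% over all the non-coding kinds), and the medians of the other 2 kinds were 0.01 and −0.03. The spread narrowed with level. Transcripts with a mean of 1 to 2 FPKM were past 2-fold in 19.9% of cases, those of 5 to 20 FPKM in 9.79% and those of 20 FPKM or more in 3.98%.

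At the level of genes, the retained-intron sum moved with the coding sum. Over 2809 genes the log2 ratios had a Pearson correlation of 0.613 and a Spearman correlation of 0.545, given as a description, since both sums come from the same libraries and share exons. Of 159 genes whose coding rows were 2-fold higher, 73 had a retained-intron sum 2-fold higher and 6 had one 2-fold lower. Of 317 genes with coding rows 2-fold lower, 162 had a retained-intron sum 2-fold lower and none had one 2-fold higher. Among the 2333 genes between, 108 retained-intron sums were higher and 159 lower.

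The genes in opposite directions included AK5, ATOX1, UBE2B, MEST and CKMT2. CKMT2 was outside the rule for naming genes and was added after its value was seen. ATOX1 encodes a copper chaperone of the cytosol. Its single retained-intron transcript, ATOX1-005 (chr5:151122383-151126124, minus strand, hg19), was at 21.8 and 6.34 FPKM, while its coding rows were at 27.8 and 67.4 FPKM. AK5, an adenylate kinase gene, had retained-intron transcripts summing to 7.71 FPKM in young cells and listed at 0 in senescent cells, and coding rows at 31.8 and 68.5 FPKM. UBE2B, a ubiquitin-conjugating enzyme gene, had 2.40 FPKM against a listing at 0, and coding rows at 9.70 and 24.3 FPKM. MEST, an imprinted gene of a hydrolase, had 1.99 and 0.351 FPKM, with coding rows at 18.4 and 39.5 FPKM.

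The retained-intron share of a gene is its retained-intron sum as a percentage of retained-intron plus coding FPKM. It was taken for 2035 genes with coding rows of at least 5 FPKM in both libraries. The median share was 16.9% in young and 16.1% in senescent cells, and the median difference was −0.36 percentage points. The share differed by less than 5 points in 1283 genes (63.05%). It was at least 10 points higher in 145 genes and at least 10 points lower in 137 genes, which are 7.13% and 6.73%. The same measure on the nonsense-mediated-decay and processed rows of a gene gave 9.09% higher and 6.1% lower. Summed over all genes, the share was 22.3% in young and 21.5% in senescent cells. Retained-intron rows made up over 50% of the FPKM in 209 genes of young and 230 of senescent cells, 178 of them in both. The median share difference was −1.44 points for the 112 genes whose coding rows were 2-fold higher and 1.77 points for the 159 whose coding rows were 2-fold lower. Coding FPKM is part of the share and also chose these genes, so opposite signs are partly built in. No conclusion is drawn from them.

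Among the largest rises in share, IMPDH2 had the most measured transcripts, a number that does not make its rise firmer. IMPDH2 encodes the rate-limiting enzyme of guanine nucleotide synthesis. Its coding rows were at 27.7 FPKM in young and 10.6 FPKM in senescent cells, while its 9 retained-intron transcripts summed to 12.3 and 19.7 FPKM. The share was therefore 30.7% and 65.1%, and 32.3% and 68.6% with complete-match coding rows. The log2 ratios of all 6 measured transcripts lay 1.38 to 2.63 above that of the coding rows. These 6 are set against the same coding sum in the same 2 libraries. They are models of a gene chosen for its rise, not replicates of it. IMPDH2-003, which holds the printed intron of 90 bases, was at 5.88 and 6.64 FPKM, and IMPDH2-004, with the intron of 80 bases, at 1.76 and 1.89 FPKM. IMPDH2-007 was at 0.745 and 3.35 FPKM, IMPDH2-008 at 1.25 and 2.52, IMPDH2-009 at 1.78 and 2.56 and IMPDH2-011 at 0.844 and 2.21 FPKM. Each was thus level or higher in the senescent library while the coding rows were lower. In the authors' deposited table none of the 6 is marked significant, and their lowest q-value is 0.189.

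The other 7 rises had fewer measured transcripts each, which does not rank them below IMPDH2. PDE1C, a cyclic nucleotide phosphodiesterase gene, had retained-intron sums of 0.695 and 6.72 FPKM and coding sums of 11.1 and 15.6 FPKM, a share of 5.88% and 30.2%. UBE2D2, a ubiquitin-conjugating enzyme gene, had 0.9997 and 7.06 FPKM against coding rows at 16.8 and 17.2 FPKM, a share of 5.61% and 29.1%. It comes from 1 transcript of 256 bases. GYG1, the glycogenin gene that primes glycogen synthesis, went from 9.04% to 32.2% with coding rows at 13.5 and 8.97 FPKM. TBXAS1, the thromboxane synthase gene, went from 9.23% to 46.9% on sums of 1.09 and 13.8 FPKM, and the authors' deposited table gives its transcripts the status FAIL. With complete-match coding rows TBXAS1 went from 53.7% to 70.4%. In 3 more genes the size depended on which coding rows were counted. ANKH, a gene of a pyrophosphate-related membrane protein, went from 29.7% to 58.6%, but from 70.6% to 80.8% with complete-match rows. RNF130, a ubiquitin ligase gene, went from 18.6% to 43.3%, but from 59.5% to 65.5%. RCHY1, a ubiquitin ligase gene, went from 16.4% to 40.2%, but from 84.8% to 87.7%.

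The largest falls in share included ATOX1, from 43.9% to 8.59%. ERCC3 encodes a helicase of the transcription factor TFIIH that also serves nucleotide excision repair. Its retained-intron sum was 5.27 FPKM in young and 1.02 FPKM in senescent cells with coding rows at 7.59 and 9.14 FPKM, a share of 41.0% and 10.1%. All 3 measured ERCC3 transcripts were lower. ERCC3-002 was at 1.94 and 0.681 FPKM, ERCC3-003, with the printed intron, at 1.30 and 0.0738 FPKM, and ERCC3-010 at 1.26 FPKM and listed at 0. KAT5, the gene of the acetyltransferase Tip60, had 4.997 and 1.03 FPKM with coding rows at 8.87 and 15.1 FPKM, a share of 36.0% and 6.37%.

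EIF2B5, a subunit gene of the exchange factor for eIF2, went from 62.0% to 39.4% on sums of 8.42 and 4.65 FPKM. PPAPDC1B, a lipid phosphatase gene, went from 55.9% to 28.0%. TBC1D9, a gene with a Rab GTPase-activating domain, had 2.09 FPKM in young cells and was listed at 0 in senescent cells, a share of 25.1% and 0%. These 3, ERCC3 and KAT5 all rest on low sums of a few FPKM. MICAL2, the gene of an actin-oxidising enzyme, had sums of 53.4 and 52.7 FPKM against coding rows at 21.1 and 83.0 FPKM, a share of 71.6% and 38.9%. With complete-match coding rows MICAL2 was at 73.4% and 72.2%, which ends the call. Each value here comes from 1 library per group, and 1283 of the 2035 genes lay within 5 points, so these genes are the tail of a ranking and not tested differences.

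**Figure D3:**
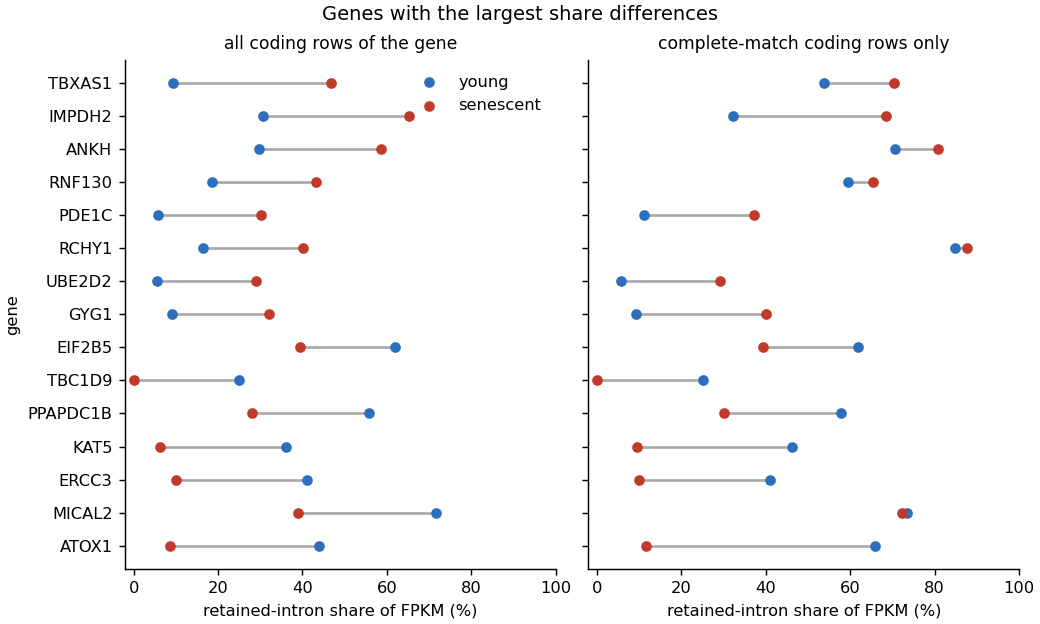
Retained-intron share of FPKM in young (blue) and senescent (red) cells for genes among the 8 largest rises and 8 largest falls, against all coding rows of the gene (left) and complete-match coding rows only (right). IMPDH2, ATOX1, ERCC3 and KAT5 keep a wide gap on the right, while MICAL2, RNF130 and RCHY1 close up.

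Genes of the splicing machinery hold many retained-intron models, and their median ratios lay below 0, as did those of their coding transcripts. The counts by level of this and the following lists are to be read against 7.91% higher and 14.0% lower over all measured retained-intron transcripts. Counts relative to coding rows are to be read against 8.80% higher and 9.40% lower over the same transcripts. SR proteins and SR-related factors, which bind exons and recruit the spliceosome, had 53 measured transcripts, 2 higher and 15 (28.3%) lower, with a median log2 ratio of −0.55. The hnRNPs and other splicing regulators had 59, none higher and 12 (20.3%) lower, with a median of −0.62. Core spliceosome genes had 39, none higher and 6 lower, with a median of −0.42. For the core list that is 15.4% lower, near the share over all retained-intron transcripts. All 3 medians stayed below 0 under both other scalings, while the counts moved. Under upper-quartile scaling the core list had 2 higher and 2 lower. The hnRNP list then had 2 higher and 7 lower, and the SR list 2 higher and 11 lower. Without such scaling the median over all retained-intron transcripts was −0.18. Relative to coding rows the medians of the 3 lists were −0.13, −0.04 and −0.10, with 4, 9 and 3 transcripts higher and 7, 2 and 1 lower. The pooled share was 46.2% and 43.5% for the SR list, 28.8% and 26.0% for the hnRNP list and 27.1% and 28.4% for the core list. SRSF1, SRSF2, SRSF3, SRSF5 and SRSF6 had no transcript under the rule.

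LUC7L3, an SR-related factor of the U1 particle, had the highest level of the SR list, with retained-intron sums of 113 and 80.8 FPKM and coding rows at 20.1 and 17.8 FPKM. Its share was 84.9% and 82.0%. U2SURP, an SR-related factor that associates with the U2 particle, had sums of 55.7 and 40.8 FPKM and a share of 73.2% and 82.0%. SRSF7, an SR protein gene, had 13.6 and 4.45 FPKM while its coding rows were at 74.6 and 56.0 FPKM, a relative difference of −1.02. TRA2B, whose product regulates its own splicing, had the largest relative difference of the list at −1.85. Its retained-intron transcripts summed to 21.5 and 7.65 FPKM while its coding rows were at 4.81 and 7.03 FPKM. The largest TRA2B transcript, TRA2B-004, was at 8.60 and 2.92 FPKM and TRA2B-005 at 6.15 and 2.44 FPKM. All 5 measured TRA2B transcripts were lower in the senescent library. TRA2A, its paralogue, had 4.86 and 3.37 FPKM and a share of 25.6% and 24.2%.

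The kinases that phosphorylate SR proteins had 8 measured transcripts, none higher and 1 lower, with a median of −0.10 that turns to 0.06 under upper-quartile scaling. CLK1, a kinase gene well known for retaining introns, had retained-intron sums of 9.61 and 7.34 FPKM and coding rows at only 2.54 and 1.98 FPKM. CLK1-010, with the printed intron of 235 bases, was at 3.03 and 2.82 FPKM. CLK4 had 3.40 and 2.08 FPKM with coding rows at 3.52 and 4.37 FPKM. Its relative difference was −0.77, on sums of a few FPKM. SRPK1 went the other way with 4.27 and 7.36 FPKM, and its share was 17.3% and 27.5%. Among the regulators, HNRNPU, a nuclear scaffold protein gene, had 172 and 93.7 FPKM with coding rows at 88.6 and 54.8 FPKM, a share of 66.0% and 63.1%. HNRNPA2B1 had 117 and 60.3 FPKM and a share of 28.2% and 31.9%, and HNRNPH1 had 70.3 and 58.1 FPKM and a share of 24.5% and 33.0%. HNRNPD had the largest relative difference of its list, 1.11, on a level of 1.04 and 0.640 FPKM, and it falls under 2-fold with a pseudocount of 0.1 FPKM.

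In the core spliceosome, SF3A1 had sums of 52.1 and 39.2 FPKM and a share of 67.5% and 71.2%. SF3B2 had 57.9 and 52.7 FPKM and a share of 33.6% and 33.7%. Both are parts of the SF3 complexes that recognise the branch point, and neither share moved by 5 points. SNRPG, a core Sm protein gene, had 3.05 and 3.28 FPKM while coding rows were at 9.88 and 5.30 FPKM, a share of 23.6% and 38.3%. Factors of nonsense-mediated decay had 3 retained-intron transcripts, and none was measured.

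Cell division genes were lower as a group, retained-intron and coding transcripts alike. Of 25 measured transcripts none was higher and 18 were lower, with a median of −1.24, and 18 were lower under both other scalings. Relative to coding rows 7 were higher and none lower, with a median of 0.72, which was 0.48 with complete-match coding rows and 0.40 with a pseudocount of 0.1 FPKM. Summed over the genes of the list, retained-intron rows were at 147 and 35.3 FPKM and coding rows at 557 and 136 FPKM, a pooled share of 20.9% and 20.6%. TACC3, which helps to build the mitotic spindle, had retained-intron sums of 37.9 and 5.08 FPKM and coding rows at 23.4 and 2.36 FPKM. TACC3-009, with the printed intron, was at 29.2 and 3.92 FPKM, with a q-value of 0.00971 in the authors' deposited table. CKAP5, a microtubule polymerase gene, had 14.9 and 12.2 FPKM and a share of 16.3% and 19.8%. CCNB1, the cyclin B1 gene, had 8.60 and 1.98 FPKM with coding rows at 26.6 and 6.25 FPKM, a share of 24.5% and 24.1%. TTK, a spindle checkpoint kinase gene, had the largest relative difference at 2.35, on a retained-intron level of 1.04 and 0.160 FPKM, and it was 0.98 with complete-match coding rows, under 2-fold.

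DNA replication and repair genes had 39 measured transcripts, 1 higher and 14 lower, with a median of −0.80 and a relative median of 0.31. That relative median was 0.23 with complete-match coding rows and 0.13 with a pseudocount of 0.1 FPKM. RRM2 had retained-intron sums of 29.3 and 1.42 FPKM and coding rows at 25.2 and 2.63 FPKM. The share of RRM2 was 53.7% and 35.2%, and with complete-match coding rows it went the other way, 65.5% and 70.4%. RRM2 is not among the genes used for shares, since its senescent coding rows lie under 5 FPKM. Complete-match coding rows were at only 0.600 FPKM in senescent cells, so neither direction is firm. Both of its measured transcripts, RRM2-003 and RRM2-011, are marked significant in the authors' deposited table, with q-values of 0.0158 and 0.000675. MCM4, a subunit gene of the replicative helicase, had 22.3 and 8.17 FPKM and coding rows at 29.1 and 5.03 FPKM, a share of 43.4% and 61.9%. All 5 measured MCM4 transcripts were lower in the senescent library, and for all 5 the ratio was over 2-fold above that of its coding rows. For the sum of the MCM4 transcripts the relative difference was 0.97, just under 2-fold. The 5 are set against the same coding sum and are not independent. The pseudocount of 1 FPKM also weighs more on a single transcript than on a sum. All 5 can thus pass 2-fold where their sum does not.

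CDK inhibitors and stress-response genes of growth arrest had 28 measured transcripts, 2 higher and 10 lower, with a median of −0.37 and a relative median of 0.27. The 10 measured transcripts of PLK2, a polo-like kinase gene, were all 10 of the lower transcripts, so that the lower count of this list is that of 1 gene. They summed to 150 FPKM in young and 38.7 FPKM in senescent cells, with coding rows at 85.6 and 20.6 FPKM, and the share was 63.7% and 65.2%. PLK2-009 was highest, at 45.3 and 11.6 FPKM, and PLK2-004, with the printed intron, was at 4.47 and 1.39 FPKM. XPC, a damage recognition gene, had 61.4 and 42.8 FPKM and a share of 57.3% and 61.0%. MDM2, a ubiquitin ligase gene, had 15.3 and 12.8 FPKM and a share of 8.13% and 6.99%. CDKN2A, the locus of p16, had 1 transcript at 1.73 and 0.912 FPKM, and its coding rows were at 6.26 and 7.08 FPKM. CDKN1A had no transcript under the rule. LMNA, the gene of nuclear lamins A and C, had 56.9 and 54.4 FPKM and a share of 25.7% and 30.6%.

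Extracellular matrix genes, the main products of a fibroblast, had 80 measured transcripts, 7 (8.75%) higher and 39 (48.75%) lower, with a median of −0.97. Of the 80, FN1 and COL1A2 held 10 each and COL1A1 held 7. Models of 1 gene overlap and are not independent, so a few genes weigh heavily in these counts. Transcripts with the status FAIL are included. The relative median was 0.16 with all coding rows and −0.08 with complete-match rows, so that its sign rests on that choice. COL1A1 had 11 transcripts, 7 of them measured, that summed to 2881 and 883 FPKM, and the share was 72.1% and 71.2%. Complete-match coding rows of COL1A1 held only 7.67 and 4.11 FPKM. COL1A1-002, with the printed intron, was at 44.5 and 18.8 FPKM. FN1 had 10 measured transcripts with sums of 2667 and 1017 FPKM, and its share was 42.3% and 43.7%, or 59.98% and 54.6% with complete-match coding rows. FN1-031, with the printed intron of 194 bases, was at 728 and 305 FPKM, and all 10 have the status FAIL in the authors' deposited table. COL6A2, a chain of the microfibril collagen VI, had the largest relative difference, 1.83, at 1.75 and 0.160 FPKM against coding rows at 819 and 95.9 FPKM. Its share was 0.214% and 0.166%, and with a pseudocount of 0.1 FPKM the relative difference was 0.26.

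Secreted factors and lysosomal genes were the lists with a median above 0. Lysosomal genes had 29 measured transcripts, 4 higher and 1 lower, with a median of 0.33, and coding rows at a median of 0.49. Relative to coding rows 1 was higher and 6 were lower, with a median of −0.23, which was −0.47 with complete-match coding rows. CTSA, the gene of the protective protein cathepsin A, had 52.3 and 81.1 FPKM and a share of 27.5% and 28.8%, or 34.4% and 30.5% with complete-match coding rows. Secreted factors had 14 measured transcripts, 2 higher and 2 lower, with a median of 0.19. TNFRSF11B, the gene of the decoy receptor osteoprotegerin, had 51.8 and 187 FPKM with coding rows at 94.5 and 357 FPKM, and SERPINE2 had 11.6 and 91.6 FPKM with coding rows at 28.2 and 164 FPKM. The share of TNFRSF11B was 35.4% and 34.3%, and that of SERPINE2 29.1% and 35.9%. PLAT, the gene of tissue plasminogen activator, had 7.30 and 9.16 FPKM against coding rows at 242 and 460 FPKM.

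Ribosomal protein genes, many of which host small nucleolar RNAs in their introns, had 64 measured transcripts under a symbol pattern that also takes in RPS27L and RPL7L1. The median was −0.36 and the relative median 0.05, which turns to −0.03 under upper-quartile scaling, and 4 stood higher against 10 lower. RPL13A had 249 and 149 FPKM and a share of 46.9% and 46.3%, almost all from RPL13A-005, which spans SNORD32A. RPL3 had 188 and 94.5 FPKM and a share of 17.7% and 19.7%. RPL7 had the largest relative difference, 1.69, on a level of 0.264 and 1.29 FPKM. Translation factors had 55 measured transcripts, 7 higher and 7 lower, with a median of −0.13 that turns to 0.04 under upper-quartile scaling. EEF1A1, the main elongation factor gene, had 148 and 183 FPKM while its coding rows were at 1305 and 939 FPKM, a share of 10.2% and 16.3%. EIF4A2, a helicase gene of translation initiation, had 172 and 189 FPKM and a share of 82.9% and 81.6%. EIF3E had 0.591 and 1.26 FPKM and a relative difference of 1.44.

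Actin cytoskeleton genes had 35 measured transcripts, 1 higher and 6 lower, with a median of −0.43. The lower share, 17.1%, is near that over all retained-intron transcripts. FLNA, the filamin A gene, had 356 and 227 FPKM and a share of 53.4% and 54.5%. With complete-match coding rows the direction for FLNA turns, with a share of 92.7% and 86.2% and a relative difference of −1.01. CALD1, the caldesmon gene, had 134 and 156 FPKM and a share of 17.3% and 13.0%. MYH10, a non-muscle myosin gene, had 14.5 and 1.10 FPKM and a share of 16.2% and 5.62%. Oxidative phosphorylation genes had 42 measured transcripts, 2 higher and 5 lower, with a median of −0.06 that turns to 0.15 and 0.07 under the other scalings. Relative to coding rows, 1 was higher and 8 were lower, with a median of −0.21. NDUFB5 had the largest relative difference, −1.19, at 3.07 and 2.03 FPKM with coding rows at 8.60 and 15.3 FPKM. NDUFA4 had 42.2 and 43.8 FPKM. UQCRC1 had 68.8 and 61.1 FPKM while its coding rows were listed at 0 in both libraries, which was so for 19 genes.

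Genes of the amino-acid response and protein folding had 36 measured transcripts, 2 higher and 4 lower, with a median of −0.05 that turns to 0.18 and 0.09 under the other scalings. GARS, the glycyl-tRNA synthetase gene, had 320 and 274 FPKM and a share of 91.2% and 90.4%. CANX, the gene of the chaperone calnexin, had 158 and 168 FPKM and a share of 28.2% and 25.2%. HSPE1, a mitochondrial co-chaperone gene, had 3.50 and 1.32 FPKM and the largest relative difference, just short of 2-fold at −0.9995.

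Transcripts of 1 gene did not always move together. Of 1217 genes with at least 2 measured retained-intron transcripts, 475 (39.0%) had a gap of over 2-fold between the highest and the lowest ratio, with a median gap of 0.81 on the log2 scale. The same gap was not measured for other kinds of transcript, so it is not shown to be particular to this kind. Ratios also spread widely at low levels. Relative to coding rows, 19.9% of transcripts at 1 to 2 FPKM were past 2-fold, against 3.98% at 20 FPKM or more. In 27 genes 1 transcript was 2-fold higher and another 2-fold lower. RPL3 is such a gene: RPL3-015 was at 183 and 84.6 FPKM, while RPL3-017 was at 0.417 and 6.29 FPKM. In COL1A1, COL1A1-016 was at 1.48 and 5.52 FPKM against the lower level of COL1A1-017. In EIF4A2, with 12 measured transcripts, EIF4A2-012 was listed at 0 and then at 1.26 FPKM, while EIF4A2-021 was at 3.08 and 0.0132 FPKM. EIF4A2-006 is 5327 bases long with 3445 intronic bases and spans SNORA4, SNORA63, SNORA81 and SNORD2. It was at 8.67 and 4.23 FPKM. The mostly exonic EIF4A2-027, with 27 intronic bases, was at 97.7 and 102 FPKM. Of 49 placed transcripts that span a small nucleolar RNA gene, 25 were measured, 2 higher and 3 lower, with a relative median of 0.21 that was −0.05 with a pseudocount of 0.1 FPKM.

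Transcripts with more intronic sequence had lower levels, and their ratios were lower relative to coding rows. By share of bases inside an intron, in classes of under 25%, 25 to 50%, 50 to 75% and 75 to 100%, the median level in young cells was 3.14, 2.13, 1.78 and 1.60 FPKM. The median relative ratio was 0.09, −0.00, −0.04 and −0.14. With complete-match coding rows it was −0.01, −0.12, −0.17 and −0.29. At 5 FPKM or more it was 0.14, 0.02, −0.01 and −0.12, over 755, 483, 173 and 18 transcripts, so the last class is thinly filled there. In the most intronic class 1 of 243 measured transcripts was 2-fold higher and 15 were lower, against 196 higher and 258 lower of 1759 in the least intronic class. The quartiles of neighbouring classes overlap widely, from −0.36 to 0.56 in the first and from −0.59 to 0.24 in the last. Over 4647 transcripts the Spearman correlation of intronic percentage with relative ratio was −0.111, and with mean level −0.242. Both are descriptions over transcripts of the same 2 libraries that share genes, exons and depth.

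**Figure D4:**
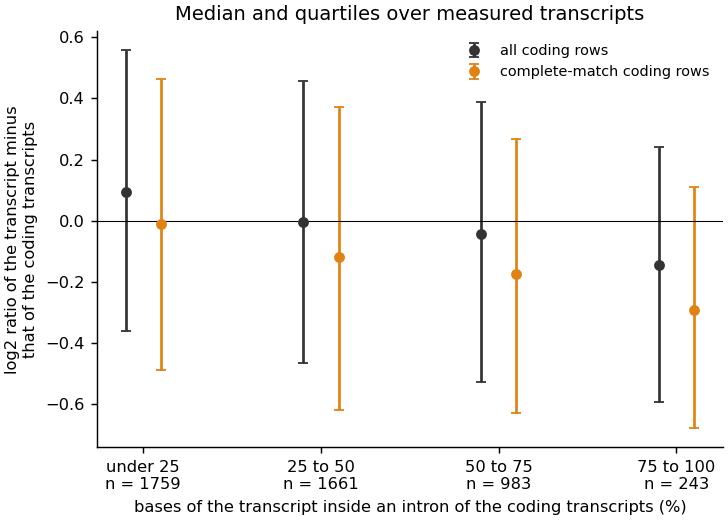
Median (point) and quartiles (bars) of the log2 ratio of a retained-intron transcript minus that of its coding transcripts, by percentage of intronic bases, against all coding rows (dark) and complete-match rows (orange). The median goes from 0.09 to −0.14 and from −0.01 to −0.29 across the classes, within wide quartiles.

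The gap between transcripts with and without a whole intron, as in the printed examples, was smaller. The 925 measured transcripts with a whole intron had a relative median of −0.08, with 59 higher and 103 lower. The 3684 with part of an intron had 0.03, with 348 higher and 326 lower. At 5 FPKM or more the medians were 0.06 and 0.08, so the gap of −0.11 shrank to −0.02. Introns held whole by transcripts that were relatively higher (69 introns), lower (133) and between (908) had median lengths of 183, 228 and 211.5 bases.

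The authors' deposited table gives a status and a q-value for each transcript, with significance at a q-value under 0.1. Of 8134 retained-intron transcripts with the status OK, it marks 126 as significant, 54 higher and 72 lower, in 106 genes. That is 1.55%, against 3.16% of all transcripts with that status. Among the 126, 47 were at least 2-fold away from the coding rows of their gene. Over all measured retained-intron transcripts 8.80% were higher and 9.40% lower in this sense. The 126 were chosen by their own change, so a larger share among them is partly built in. PCOLCE-003 has a q-value of 6.86e-09, PCOLCE-009 one of 2.81e-06, SERPINE2-010 one of 0.00058 and FBLN1-015 one of 0.00102 in the authors' deposited table. RPL3-017, with a q-value of 0.0413 in that authors' deposited table, is a significant transcript that went against its gene. These q-values rest on 1 library per group, so they carry no measured spread between cultures.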

How the data were processed

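The authors deposited 1 table of transcripts with an FPKM column for each library, young and old, a fold change as a ratio, and a p-value and q-value, per the file headers. The old column was taken as the senescent sample. Total RNA was amplified with a kit that takes up RNA with and without polyA, per the labels' protocols, so unspliced RNA can be sampled. Per the submitters' processing notes, the tools were TopHat2 2.0.6, Cufflinks 2.0.2 and Cuffdiff, and the build hg19. The strand of counting and the annotation release are not given in the sources used here, so overlapping genes cannot be separated. The authors' ratio and p-value were not used, and their q-value was used only where named.

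FPKM was compared as log2(FPKM + 1), with transcripts of at least 1 FPKM in 1 library called measured. Shares needed coding rows at 5 FPKM in both libraries. Effective depth came from the step of low FPKM values: 76.4% of 3719 young and 78.3% of 4170 senescent values were whole fragments within 0.05, where 10% would be by chance. Intron structure and sequence came from GENCODE 29 on GRCh38, with no coordinate conversion. The search took introns of at least 30 bases. Calculations used Python 3.11.15, pandas 2.3.3 and numpy 2.4.6, tested on simulated data. No count model was run. Samples were grouped by their labels, and 14 alternatives were tried.

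The transcripts, the 16 gene lists and the rules were chosen with earlier results of these data known. Genes named are the 6 highest and 6 lowest ratios at 5 FPKM, the 8 largest share differences each way, the 8 highest means, 5 genes in opposite directions, 2 by level and 1 by relative difference per list, and 24 fixed genes. Some genes that this rule takes are not reported here.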

Additional observations from a re-analysis of the deposited data

How the results depend on the processing

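No paired analysis was possible because each group has 1 library, and no library could be left out for the same reason. A pseudocount of 0.1 FPKM gave 654 higher and 1233 lower transcripts, 935 lower relative to coding rows and a relative median of −0.0559, and 0.5 FPKM gave a relative median of −0.0199. A filter of 5 FPKM gave 200 higher and 214 lower, a median of −0.0246, 113 higher and 77 lower relative to coding, and 80 genes with a lower share. No filter gave 953 and 842 relative to coding. Upper-quartile scaling moved the median to 0.0146 and the relative median to −0.0249, and median-ratio scaling moved them to −0.0610 and −0.0151. The relative median was −0.0721 with the highest coding row, −0.10 with complete-match rows and −0.00969 with a minimum length of 500 bases, so its sign is not fixed. A 4-fold rule left 64 higher and 84 lower, and 58 and 49 relative to coding. Shares differed by 20 points in 19 genes upward and 15 downward, and with coding rows at 10 FPKM by 10 points in 93 and 72. The gap between the most and least intronic classes, −0.24, was −0.43 with a pseudocount of 0.1 FPKM, −0.28 with complete-match rows and −0.26 at 5 FPKM, settings chosen after seeing the data. The gap between whole and partial introns, −0.11, was −0.02 at 5 FPKM and −0.06 with complete-match rows. UBE2D2 turned from 1.98 to −0.0323 with a minimum length of 500 bases, which leaves out its transcript of 256 bases. Of 28 genes under the naming rule past 2-fold relative to coding, 17 kept the call in each alternative run. The cause of the other changes was not tested. Depth limits low transcripts most, since 1 FPKM is about 7 fragments.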
